A study of Mus musculus with 32 samples.

Results

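Livers of male mice lacking Khk were compared with livers of wild-type (WT) males across all 6375 genes of the liver expression table, of which 5448 are protein-coding. The liver libraries are 8 of the 32 in the study: 4 from Khk knockout (KO) mice and 4 from WT mice. The table holds every liver gene whose difference between the genotypes had an unadjusted p-value under 0.05 in the authors' test, and the authors' adjustment covered 18225 genes. A pathway member outside the table was therefore not analysed here, and the genes described below are not a random draw from liver genes.

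Ketohexokinase, the product of Khk, phosphorylates fructose to fructose 1-phosphate, which aldolase B splits into trioses that enter glycolysis, gluconeogenesis and lipid synthesis below the regulated phosphofructokinase step. The liver is the main organ of fructose use, together with the small intestine. Hepatocytes also secrete most plasma proteins, break down amino acids, make bile acids and oxidise drugs through cytochromes P450, and divide these tasks between the portal and the central end of the lobule.

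The study was designed to ask how fructose and ketohexokinase bear on iron balance. Polyadenylated RNA was sequenced from liver and from 3 segments of small intestine, and the labels give no age, strain, diet or time of day and do not say which part of Khk was deleted or whether in all tissues. The reads of the table's genes came to between 7505439 and 14331517 per liver library. Nothing in the labels says that libraries of a genotype came from different mice other than their numbering, so the p-values measure the spread between these libraries.

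Fold changes followed gene length, and the libraries did so by degrees. Relative to the mean of the 8 libraries, genes of 1 kb stood at -0.36, -0.42, -0.29 and -0.33 (log2 of the normalised count plus 1) in Khk KO replicates 1 to 4, and genes of 16 kb at 0.52, 0.55, 0.48 and 0.55. WT replicates 2, 3 and 4 ran the other way, at 0.39, 0.67 and 0.35 for 1 kb and -0.62, -1.03 and -0.51 for 16 kb. WT replicate 1 was nearly flat, at 0.03 and 0.14, and lay between the other WT libraries and the Khk KO libraries. Over the 4914 coding genes whose mean reached 50 normalised counts, log2 gene length and the log2 fold change (Khk KO over WT) had a Pearson correlation of 0.76 and a Spearman correlation of 0.77; all of these genes were measured in the same 8 libraries. The median log2 fold change went from -0.80 below 1 kb to 0.84 above 8 kb. Each gene is therefore given in 3 fits of the same read counts: the count fit, the gene-length fit, in which each library's trend with the deposited gene length was taken out, and the transcript-length fit, in which the trend with the length of the gene's leading annotated transcript was taken out.

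**Figure D1:**
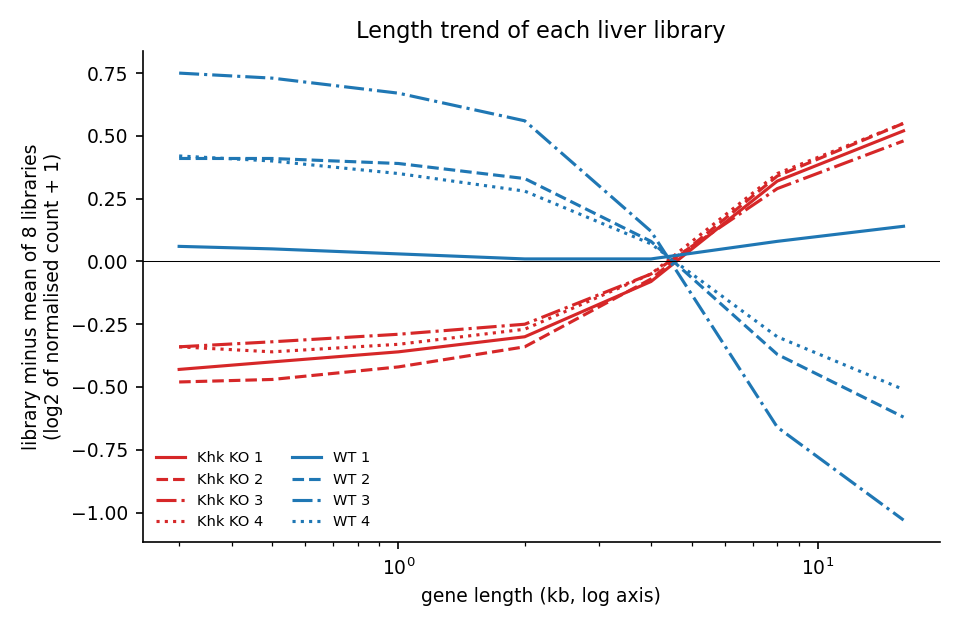
Trend of each liver library with gene length (x axis, kb, log scale) as the smoothed deviation from the mean of the 8 libraries (y axis, log2 of normalised count + 1); red lines are Khk KO and blue lines WT replicates 1 to 4. The Khk KO curves lie together and rise with length, 3 WT curves fall, and the curve of WT replicate 1 stays between 0.01 and 0.14.

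Of 5734 genes tested, the count fit called 1310 higher (22.8%) and 1365 lower (23.8%) in Khk KO, together 46.7% (adjusted p under 0.05). The gene-length fit called 396 higher (6.91%) and 390 lower (6.8%), together 13.7%, and the transcript-length fit 380 (6.63%) and 303 (5.28%), together 11.9%. Both length fits together called 256 genes higher and 158 lower (4.46% and 2.76%, together 7.22%). Of these 414, 293 were called in the same direction by the count fit. Of 5243 coding genes tested, both length fits called 115 higher and 155 lower. The count for each gene list below is to be read beside the share of the same fit over all genes tested. The authors' deposited adjusted p-values called 2283 genes higher and 2081 lower of 6375 (35.8% and 32.6%, together 68.5%). The Khk KO and WT libraries did not overlap for 3807 genes tested (66.4%). Leaving out single libraries moved the calls widely: the count fit called 9 genes without Khk KO replicate 2, 14 without WT replicate 4, 47 without Khk KO replicate 1, 114 without Khk KO replicate 4, 533 without WT replicate 2, 689 without Khk KO replicate 3 and 4860 without WT replicate 1. In the gene-length fit, the range over left-out libraries was 48 to 1807. Of the 414 genes called by both length fits, 39 were called by both in each of the 8 fits that left out a library, and 19 of these were protein-coding. Coding genes of that set, picked after their values were seen, included Khk, Nlrp12, Rfc2, S1pr2 and Adgrv1 among the falls and Cyp1a2, Cyp2c37, Cyp3a25, Abcg5, Acnat1, Per2, Zfp970, BC005561, Sfpq, Simc1, Sned1, Itgb2l and Sftpa1 among the rises.

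**Figure D2:**
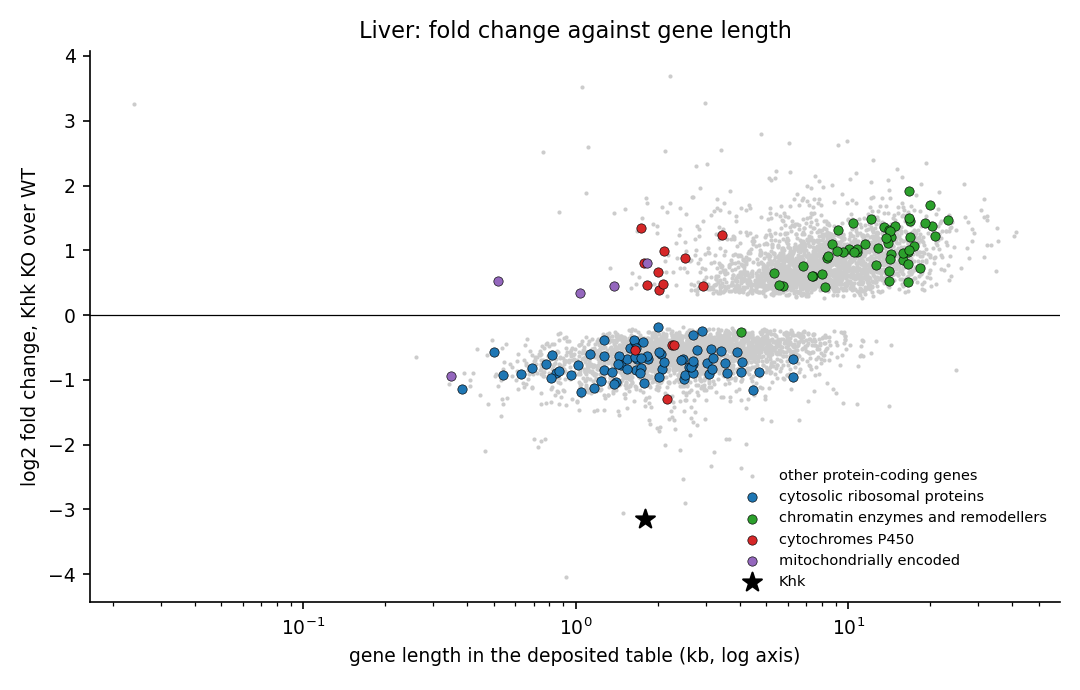
Log2 fold change in the count fit, Khk KO relative to WT (y axis), against deposited gene length (x axis, kb, log scale) for protein-coding genes of the table, with 4 groups coloured and Khk starred. The empty band around 0 reflects that the table holds genes with an unadjusted p under 0.05; ribosomal proteins lie among the short genes below 0, chromatin enzymes among the long genes above 0, and cytochromes P450 and mitochondrially encoded RNAs lie largely above 0 at lengths where other genes lie below.

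The targeted gene was low in every knockout library. Khk (ENSMUSG00000029162, GRCm38 chr5:30921431-30931248, plus strand, protein-coding) had 743, 1000.3, 909 and 852 normalised counts in Khk KO and 5784, 7084, 11769 and 7049 in WT, so that no library of one genotype reached the other. The Khk KO mean, 876 ± 108 (SD, n = 4), was 11.1% of the WT mean of 7922 ± 2635 (SD, n = 4). The log2 fold change was -3.14 ± 0.21 (SE, edgeR adjusted p = 2.67e-04) in the count fit, -2.52 in the gene-length fit and -2.61 in the transcript-length fit. Permuting the genotypes exactly, two-sided, on normalised counts gave a permutation p = 0.0286, the smallest that 4 against 4 libraries allow. Of the 58 genes tested within 10 Mb of Khk on chromosome 5, 5 including Khk were called by both length fits (8.62%, beside 7.22% of all genes tested).

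Among enzymes of sugar metabolism, the rises were in a pair of genes that set the level of fructose 2,6-bisphosphate, the activator of phosphofructokinase and inhibitor of fructose 1,6-bisphosphatase. Pfkfb3 had 932, 1923, 2238 and 1941 normalised counts in Khk KO and 641, 173, 464 and 338 in WT. Every Khk KO library lay above every WT library, although Khk KO replicate 1 and WT replicate 1 lay nearest each other. Its log2 fold change was 2.14 ± 0.38 (SE, adjusted p = 0.0175) in the count fit, 1.54 ± 0.34 (adjusted p = 0.0266) in the gene-length fit and 1.59 ± 0.33 (adjusted p = 0.0215) in the transcript-length fit, above each of the 200 protein-coding genes nearest in gene length. Pfkfb2, the isoform best known from heart, had 361, 347, 393 and 626 in Khk KO and 165, 147, 148 and 152 in WT, with log2 fold changes of 1.52, 0.92 and 1.20 in the same order (adjusted p = 0.0107, 0.0259 and 0.00804). The WT libraries were nearly equal, and Khk KO replicate 4 stood above the other 3. Neither gene was called by both length fits when Khk KO replicate 2, 3 or 4 or WT replicate 2 or 4 was left out, nor was Pfkfb2 without Khk KO replicate 1.

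Most enzymes of the glycolytic and gluconeogenic chain itself moved with their length. Of 40 genes of glycolysis, gluconeogenesis and glycogen, 20 were in the table. The count fit called 4 higher and 8 lower, and both length fits called only Pfkfb2 and Pfkfb3 higher and Khk lower. The gene-length fit called 3 higher and 3 lower, and of these Eno1, Gys2 and Pygl were not called by both length fits. Fbp1, fructose 1,6-bisphosphatase, averaged 13926 ± 426 normalised counts in Khk KO and 22429 ± 4295 in WT (SD, n = 4); a difference of -0.66 on the log2 scale in the count fit (adjusted p = 0.0183) became -0.05 in the gene-length fit and -0.11 in the transcript-length fit (adjusted p = 1 in both). Tpi1, triose-phosphate isomerase, went from -0.67 (adjusted p = 0.0157) to -0.24 and -0.17 (adjusted p = 0.19 and 0.553). Tkt, transketolase of the pentose phosphate pathway, fell in all 3 fits, with log2 fold changes of -0.57, -1.23 and -0.76 (adjusted p = 0.0266, 0.015 and 0.0143), from 2783, 3207, 4237 and 3507 normalised counts in WT to 1992, 2409, 2282 and 2388 in Khk KO. The libraries of the genotypes did not overlap for Tkt. Its call by both length fits was lost without Khk KO replicate 1 or 2.

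Several drug-metabolising cytochromes P450 rose once gene length was taken out. Of 56 genes listed, 15 were in the table and 14 were tested. The count fit called 4 higher and 2 lower, the gene-length fit 8 higher and 0 lower, and both length fits 6 higher and 0 lower, beside 4.46% higher and 2.76% lower of all genes tested. The 6 were Cyp1a2, Cyp2c37, Cyp2c50, Cyp3a25, Cyp3a59 and Cyp2b10. The median log2 fold change of the 14 was 0.47 in the count fit, 1.03 in the gene-length fit and 0.87 in the transcript-length fit. Over all genes tested it was 0.33, 0.00 and 0.00, and over the coding genes -0.25, -0.02 and -0.02. Leaving out 1 library at a time left 3 to 8 of them higher and 0 lower with both lengths. Base composition mattered as well: with the GC trend alone taken out in place of length, 1 P450 was higher and 2 were lower, and Cyp3a25 and Cyp2c50 stood at -0.07 and -0.16 (adjusted p = 1 and 0.739). With the length trend and then the GC trend taken out, each of the 6 was called higher, by 0.77 to 1.55.

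Cyp1a2, which oxidises caffeine and aromatic amines, had 14441, 15367, 16452 and 15240.4 normalised counts in Khk KO and 11910.3, 12462, 12236 and 11410.5 in WT. The difference was small, with no overlap, at 0.38 ± 0.09 (SE, adjusted p = 0.0258) in the count fit, and larger once length was accounted for, at 0.93 ± 0.11 (adjusted p = 0.00373) and 0.76 ± 0.09 (adjusted p = 0.00311). Cyp3a25, a steroid and drug hydroxylase, had 17967, 15741, 15219.7 and 16113 in Khk KO and 9792, 12652, 13309.9 and 11872 in WT, with log2 fold changes of 0.48, 1.03 and 0.84 (adjusted p = 0.0247, 9.08e-04 and 0.00108). It exceeded 95.5% of its 200 neighbours in length, as did Cyp1a2. Cyp2b10, the classical target of the receptor CAR, had 175, 178, 278 and 372 in Khk KO and 96.3, 209, 79.4 and 128 in WT. Its genotypes overlapped, and it rose in the gene-length and transcript-length fits (1.53 and 1.39, adjusted p = 0.0261 and 0.0356) but missed the threshold in the count fit (1.00 ± 0.34, adjusted p = 0.0699). Cyp2c37 and Cyp3a59 likewise overlapped between the genotypes and missed it there, at 0.46 and 0.66 (adjusted p = 0.0886 and 0.129), so that 3 of the 6 rises rest on the length fits. Cyp17a1, a steroid 17-hydroxylase, was the member with the lowest fold change, at -1.29 in the count fit (adjusted p = 0.0256) and -0.76 and -0.86 with length taken out (adjusted p = 0.28 and 0.194). Members of the Cyp2c and Cyp3a clusters are near-identical in sequence, and how the authors' counting split their shared reads is not given in the sources used here.

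Among genes zoned along the lobule, the calls by both length fits were all P450s. Of 22 pericentral genes, 12 were in the table; the count fit called 5 higher and 1 lower, and both length fits called 3 higher and 0 lower (Cyp1a2, Cyp2c50 and Cyp2c37). The median of the 12 was 0.41 in the count fit and 0.30 and 0.29 in the length fits. Glul, glutamine synthetase of the last hepatocytes around the central vein, stood at -0.21 ± 0.10 in the count fit (adjusted p = 0.168) and 0.08 in the gene-length fit. Lgr5, an R-spondin receptor gene, and Znrf3, which encodes a ubiquitin ligase that removes Wnt receptors from the membrane, rose in the count fit (1.13 and 1.29, adjusted p = 0.0175 and 0.0264) and stood at 0.24 and 0.72 in the gene-length fit (adjusted p = 1 and 0.0723). Of 18 periportal genes, 10 were in the table, with 1 higher and 6 lower in the count fit and none called by both length fits. Ass1, argininosuccinate synthase of the urea cycle, fell in the count fit, by 0.83 (adjusted p = 0.0183), and stood at -0.32 and -0.34 with length taken out (adjusted p = 0.177 and 0.148).

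Some RNAs encoded in the mitochondrial genome rose, whereas nuclear genes of the respiratory chain were lower in the count fit. All 13 mitochondrial messenger RNAs were listed and 5 were in the table; both length fits called 3 higher and 0 lower (mt-Nd2, mt-Nd5 and mt-Nd6, subunits of respiratory complex I). mt-Nd2 overlapped between the genotypes and missed the threshold in the count fit (0.34, adjusted p = 0.111), and stood at 0.97 and 0.92 in the length fits (adjusted p = 0.0228 and 0.025). mt-Nd5 had 106155, 108352, 103618 and 86777 normalised counts in Khk KO and 73276, 62718, 47245 and 53452 in WT, without overlap. Its log2 fold changes were 0.80 ± 0.15 (SE, adjusted p = 0.0181), 1.34 ± 0.21 (adjusted p = 0.0117) and 1.20 ± 0.19 (adjusted p = 0.00804) in the 3 fits. mt-Nd6 rose by 0.53, 1.24 and 1.24 (adjusted p = 0.0339, 0.0152 and 0.0122); it is encoded on the opposite strand to the other 4, and the strandedness of the libraries is not known. mt-Nd3, the shortest at 348 bases, stood at -0.94 (adjusted p = 0.0351), -0.13 and -0.10 (adjusted p = 1 in both). Without Khk KO replicate 2 none of the 5 was called by both length fits, and without Khk KO replicate 1 or WT replicate 4 only 1 was. With the GC trend alone taken out, mt-Nd2 and mt-Nd6 stood at -0.30 and -0.15 (adjusted p = 0.161 and 0.991), whereas with length and then GC taken out mt-Nd5 and mt-Nd6 rose (1.27 and 1.16, adjusted p = 0.0167 and 0.028) and mt-Nd2 missed the threshold (0.90, adjusted p = 0.0598). By contrast, of 81 nuclear respiratory chain genes tested the count fit called 0 higher and 68 lower, and both length fits called none; in edgeR the gene-length fit alone called 10 lower and the transcript-length fit alone 2. Their median moved from -0.66 to -0.10 and -0.04.

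Genes of protein synthesis and breakdown showed how far the length adjustment reached. Of 74 cytosolic ribosomal protein genes tested, the count fit called 0 higher and 69 lower, with a median of -0.76, and both length fits called 3 lower, with medians of -0.19 and -0.06. These 3 were Rpl18, Rps20 and Rps15a. Rpl18 had 1822, 1686, 1952 and 1832 normalised counts in Khk KO and 2737, 3375, 4281 and 3287 in WT, and fell with log2 fold changes of -0.88, -0.78 and -0.44 (adjusted p = 0.0157, 0.0116 and 0.0148). Of 65 mitochondrial ribosomal protein genes, the count fit called 43 lower and both length fits 11 lower (2.76% of all genes tested were lower by that rule) and 0 higher. Mrps26, a protein of the small mitochondrial ribosomal subunit and one of these 11, had 270.5, 222, 251 and 263 in Khk KO and 393, 435, 546 and 446 in WT, with log2 fold changes of -0.83, -0.82 and -1.36 (adjusted p = 0.0175, 0.0143 and 0.006). The medians of the 65 were -0.68, -0.22 and -0.10. The 11 became 0 without Khk KO replicate 2, 3 without Khk KO replicate 1, 4 without Khk KO replicate 3 or 4 or WT replicate 2, 7 without WT replicate 4 and 15 without WT replicate 1 (8 without WT replicate 3). Of 41 proteasome genes, 22 were lower in the count fit and 2 (Psmb5 and Psmd5) in both length fits. The deposited gene length is the union of all annotated exons, which for some short messenger RNAs is far longer than the main transcript: Rps24 has 6256 bases against 1613, and its fold change went from -1.46 in the gene-length fit (adjusted p = 0.017) to -0.41 in the transcript-length fit (adjusted p = 0.137). Mrpl33 likewise went from -1.49 (adjusted p = 0.0152) to -0.04 (adjusted p = 1), and Hadhb, a fatty acid oxidation enzyme, from -0.85 (adjusted p = 0.0186) to 0.03 (adjusted p = 1).

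**Figure D3:**
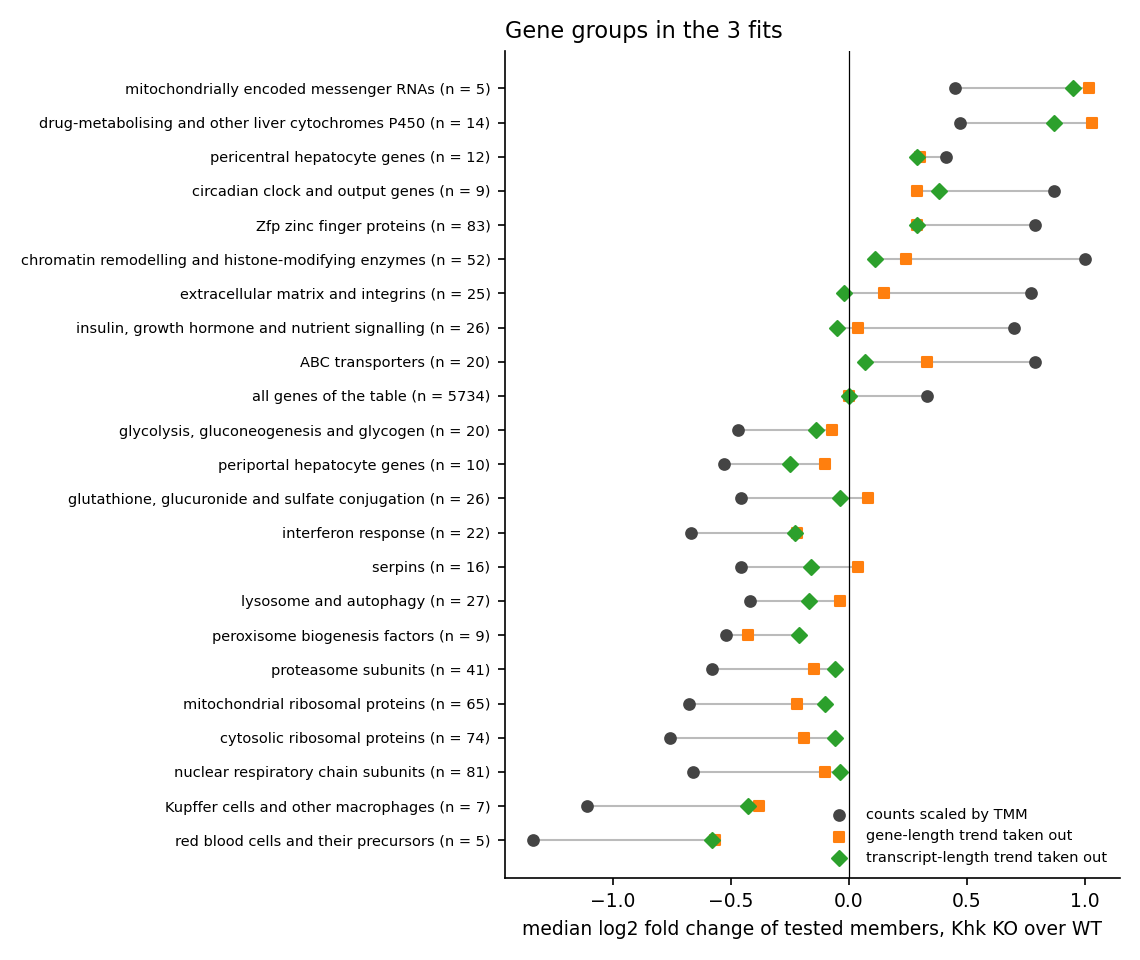
Median log2 fold change, Khk KO relative to WT (x axis), of the tested members of 22 gene groups and of all genes tested, in the count fit (grey circles), the gene-length fit (orange squares) and the transcript-length fit (green diamonds); n is the number tested. The ribosomal, respiratory chain and chromatin medians moved most of the way to 0 once length was taken out, and those of the P450s and the mitochondrially encoded RNAs moved away from it, to between 0.87 and 1.03.

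Secreted protease inhibitors of the serpin family were lower in the count fit, and 3 of them fell for their length as well. Of 61 serpins listed, 17 were in the table and 16 tested. The count fit called 0 higher and 11 lower. Both length fits called 0 higher and 3 lower, beside 4.46% and 2.76% of all genes tested. Serpina12 (vaspin, an insulin-sensitising secreted serpin) had 573, 354, 599 and 488 normalised counts in Khk KO and 1321, 1118, 1898 and 793 in WT, and fell with log2 fold changes of -1.32, -1.12 and -1.69 (adjusted p = 0.0187, 0.0228 and 0.00875). Serpina10, the inhibitor of coagulation factor Xa that needs protein Z, fell with log2 fold changes of -0.95, -0.68 and -1.26 (adjusted p = 0.0187, 0.0263 and 0.00965). Serpinc1, which encodes antithrombin, had 27628, 28762, 28474 and 29530.5 in Khk KO and 33003, 41712, 47413 and 39324 in WT. Its log2 fold change was -0.47 ± 0.11 in the count fit (adjusted p = 0.023) and -1.24 and -1.16 with length taken out (adjusted p = 0.015 and 0.00965). None of these 3 genes overlapped between the genotypes, as held for 66.4% of all genes tested, and WT replicate 3 was the highest library for each. Over the left-out libraries 0 to 3 serpins were lower with both lengths. Of 16 tested coagulation genes, Serpinc1 was the one called by both length fits, and of 17 complement genes and 21 acute-phase and carrier proteins none was.

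The acute-phase genes Saa1 and Saa2 had large differences that rested on 3 of the 4 WT libraries. Saa1 had 369, 599.6, 632 and 826 normalised counts in Khk KO and 375, 6496, 3934 and 3547 in WT. WT replicate 1 lay among the Khk KO libraries. The log2 fold change was -2.53 ± 0.61 in the count fit (adjusted p = 0.026) and missed the threshold in the gene-length and transcript-length fits (-1.99 and -1.73, adjusted p = 0.0715 and 0.118). Saa2 showed the same arrangement, at 102, 191, 65.4 and 154 against 99.6, 1942, 967 and 902.

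In lipid metabolism, the sterol exporter gene Abcg5 rose and the desaturase gene Scd1 fell. Abcg5, which with Abcg8 pumps sterols into bile, had 1838, 2092, 2254 and 1905 normalised counts in Khk KO and 1427, 1654, 1506 and 1359.9 in WT, and rose by 0.47 ± 0.13, 0.90 ± 0.11 and 0.67 ± 0.10 (SE, adjusted p = 0.0337, 0.00506 and 0.00746). Abca6, a transporter of the ABCA subfamily, had 5952, 5898, 6375 and 6085 in Khk KO and 4086, 2344, 2045 and 2627 in WT and rose by 1.15, 0.91 and 0.52 (adjusted p = 0.0175, 0.0129 and 0.0124). Of 20 ABC transporters tested, the count fit called 13 higher and 0 lower, beside 22.8% and 23.8% of all genes tested. Both length fits called Abcg5 and Abca6 higher and 0 lower, beside 4.46% and 2.76%. The median gene length of the 20 was 6804 bases, against 4275 over all genes tested. Abcg8, the partner of Abcg5, rose by 0.51 and 0.69 in the count and gene-length fits (adjusted p = 0.0392 and 0.0188). It stood at 0.18 in the transcript-length fit (adjusted p = 0.882). Scd1, the stearoyl-CoA desaturase, had 29812, 52463, 47929 and 28974 in Khk KO and 114856, 81858, 62791 and 93804 in WT. It fell in each fit, at -1.13 ± 0.24 (adjusted p = 0.0201), -1.24 ± 0.21 (adjusted p = 0.015) and -1.70 ± 0.19 (adjusted p = 0.00184), and WT replicate 1 was the WT library with the highest value; the call by both length fits was lost without Khk KO replicate 1. Scd1 was the one of 17 tested genes of fatty acid and triglyceride synthesis called by both length fits. Fasn, fatty acid synthase, rose in the count fit (0.87, adjusted p = 0.0411) and stood at 0.06 and -0.26 with length taken out (adjusted p = 1 in both). Apob, the scaffold of very-low-density lipoprotein and a transcript of 13934 bases, went from 1.27 (adjusted p = 0.0341) to 0.44 and 0.07 (adjusted p = 0.206 and 1).

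In amino acid breakdown, the count fit called 0 higher and 12 lower of 23 tested genes, and both length fits called Tat alone, higher. Tat, the tyrosine aminotransferase induced by glucocorticoids and glucagon, had 29362, 37441, 46832 and 65023 normalised counts in Khk KO and 27725, 20392, 27758 and 33812 in WT. It overlapped between the genotypes and stood at 0.73 (adjusted p = 0.0522), 1.21 (adjusted p = 0.0185) and 0.92 (adjusted p = 0.0379). Klf15, a transcription factor of fasting metabolism, overlapped as well and stood at 0.33 (adjusted p = 0.127), 0.74 (adjusted p = 0.015) and 0.52 (adjusted p = 0.0251). Among antioxidant genes, 1 of 13 tested rose and 11 fell in the count fit. Both length fits called 1 of them higher and 1 lower, and the lower one was Tkt, whose values are given above. The higher one was Gclc, the catalytic subunit that makes glutathione's precursor: 6497, 6819, 6126 and 5793 in Khk KO against 4736, 3744, 3879 and 4436 in WT, with log2 fold changes of 0.61, 0.78 and 0.37 (adjusted p = 0.0193, 0.0116 and 0.0412).

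Several clock genes rose in the count fit, and Per2 was the member called in each fit. Of 24 clock and output genes, 9 were in the table; the count fit called 6 higher and 0 lower, the transcript-length fit 3 higher and both length fits 1. Per2, a repressor in the core feedback loop, had 1035, 1068, 1147 and 1185 normalised counts in Khk KO and 572, 389.5, 361 and 400.5 in WT. The Khk KO libraries were close together and far from every WT library, with log2 fold changes of 1.39 ± 0.17 (SE, adjusted p = 0.0083), 1.04 ± 0.11 (adjusted p = 0.00197) and 0.65 ± 0.10 (adjusted p = 0.00829). Per2 was called by both length fits whichever library was left out. Noct, whose expression cycles in liver, rose in the count and transcript-length fits (1.35 and 1.26, adjusted p = 0.0206 and 0.0181) and stood at 0.57 in the gene-length fit (adjusted p = 0.165). Cry2, the partner of the period proteins, rose in the same pair of fits (0.73 and 0.63, adjusted p = 0.0253 and 0.0264). Per1 and Per3 rose in the count fit (0.96 and 0.87, adjusted p = 0.0207 and 0.0206) and stood at 0.65 and 0.10 in the gene-length fit (adjusted p = 0.0623 and 1).

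Clock proteins act through short promoter elements, the E-box CACGTG bound by CLOCK and BMAL1 and the D-box TTANGTAA bound by the PAR bZIP factors, and stretches before RefSeq transcript starts of Per1 and Per3 are shown because the first holds an E-box and the second D-boxes. They are from RefSeq (GRCm38.p6), read 5′ to 3′ on the gene's strand, with the elements in capitals; Per1 lies at chr11:69098743-69098828 (plus strand) and Per3 at chr4:151044776-151044910 (minus strand).
Per1: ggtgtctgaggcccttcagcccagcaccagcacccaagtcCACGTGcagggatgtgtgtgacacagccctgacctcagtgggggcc
Per3: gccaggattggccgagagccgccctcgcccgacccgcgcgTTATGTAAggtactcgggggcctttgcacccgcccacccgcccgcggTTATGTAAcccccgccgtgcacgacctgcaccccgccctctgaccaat
The E-box of Per1 starts 166 bases before a RefSeq transcript start that lies inside the gene as the liver table places it (chr11:69095217-69109960, plus strand). The D-boxes of Per3 start 205 and 158 bases before its RefSeq start. Over windows of 250 bases before to 50 after the start, searched on both strands, 5 of 19 clock genes with a window held an E-box and 1 held a D-box, beside 7.15% and 2.32% of 32851 windows of all genes. The table of windows matched 7 of the 9 clock genes measured, of which 2 held an E-box and 1 a D-box; Per2 was not among those matched. A match is a run of letters, not evidence of binding.

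Interferon-response genes were lower in the count fit, and fewer were lower for their length. Of 39 genes, 22 were in the table. The count fit called 1 higher and 9 lower. Both length fits called 0 higher and 2 lower, Tap1 among them, beside 4.46% and 2.76% of all genes tested. Tap1, which feeds peptides to MHC class I, had 347, 299, 318 and 287 normalised counts in Khk KO and 389, 465, 585 and 601 in WT and fell with log2 fold changes of -0.68, -0.98 and -0.75 (adjusted p = 0.0268, 0.0172 and 0.021). Bst2 (tetherin) fell by 0.83 in the count fit (adjusted p = 0.0151) and stood at -0.12 and -0.14 with length taken out (adjusted p = 1 and 0.819). Isg15, a ubiquitin-like modifier, overlapped between the genotypes, fell by 0.94 in the count fit (adjusted p = 0.0477) and stood at -0.19 and -0.22 (adjusted p = 1 in both). Tap1 did not overlap between the genotypes, and it lost its call by both length fits without WT replicate 4 or without any single Khk KO replicate.

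Isg15 and Bst2, both short genes, are shown as measured genes whose interferon elements overlap one another. Capitals mark the run covered by the interferon-stimulated response element (GAAA, any 2 bases, GAAA) and, in Bst2, by the gamma-activated site TTCNNNGAA that overlaps it; both stretches are RefSeq sequence (GRCm38.p6) on the minus strand, Isg15 at chr4:156200835-156200936 and Bst2 at chr8:71537547-71537648.
Isg15: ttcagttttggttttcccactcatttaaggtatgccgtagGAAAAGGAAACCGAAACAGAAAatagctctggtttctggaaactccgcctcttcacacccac
Bst2: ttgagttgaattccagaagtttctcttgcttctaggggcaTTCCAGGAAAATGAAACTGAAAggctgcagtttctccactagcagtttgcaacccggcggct
In Isg15 the response element occurs 3 times in overlap, from 78 bases before the start, and in Bst2 it occurs 2 times behind a gamma-activated site that begins 136 bases before the start. Of 31 interferon-response genes searched, 16 held the response element and 7 the gamma-activated site on either strand in at least 1 window. The shares of all single windows were 3.44% and 8.3%. Among the 17 measured genes searched, 7 held the response element and 6 the gamma-activated site.

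Markers of liver macrophages moved in the same direction as the interferon genes in the count fit. Of 13 Kupffer cell and macrophage markers, 7 were in the table; 5 were lower in the count fit and none in both length fits. Clec4f, the marker that defines Kupffer cells, had 1511, 1144, 1069.8 and 1132 normalised counts in Khk KO and 1349.5, 2671, 4458 and 2818 in WT, with WT replicate 1 inside the Khk KO range. The summed level of the 7 markers ran from 4018.5 to 5944.1 in Khk KO and from 5193.4 to 14538.6 in WT. In bulk tissue fewer cells of a type and less RNA per cell cannot be told apart, and the part of these markers in the interferon result was not tested. Red blood cell genes were lower too: 5 of 9 markers were in the table, all 5 lower in the count fit and Hbb-bt in both length fits, with a summed level of 2967.2 to 3515.4 in Khk KO and 4583.7 to 10959 in WT. Hbb-bs, a beta-globin gene, had 849.8, 851, 803 and 738 in Khk KO and 924, 2918, 5646 and 3046 in WT, and WT replicate 1 again lay near the knockouts. Globin genes are close copies of each other, and their shared reads may have been split between them. Of 13 endothelial markers, 7 were in the table, 3 higher and 1 lower in the count fit. Both length fits called 0 higher and 1 lower, Dnase1l3, which averaged 1079 in Khk KO and 1304 in WT. Long endothelial genes such as Stab2 and Ptprb rose in the count fit (1.02 and 1.18, adjusted p = 0.0235 and 0.0232) and stood at 0.35 and 0.31 in the gene-length fit (adjusted p = 0.259 and 0.316). No marker of neutrophils (of 8) or pancreas acinar cells (of 12) was in the table. Cfd, an adipocyte product, had 1.92, 7.03, 45.2 and 0 in Khk KO and 26.3, 57.3, 603 and 174 in WT, with overlap, and fell by 4.05 ± 1.14 in the count fit (adjusted p = 0.0386). It missed the threshold in the gene-length and transcript-length fits (-3.22 and -3.26, adjusted p = 0.117 and 0.116). Of 12 hepatocyte markers, 7 were in the table, with 4 lower in the count fit and Tat higher in both length fits.

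Regulators encoded by long genes rose together in the count fit, and few stood apart from other genes of their length. Of 57 chromatin remodellers and histone-modifying enzymes, 52 were in the table: the count fit called 36 higher and 0 lower with a median of 1.00, and the median was 0.24 and 0.11 in the length fits. Kmt2e, a SET-domain protein of the KMT2 family, was the one called by both (1.42, 0.66 and 0.57, adjusted p = 0.0181, 0.0234 and 0.027), with 879.6, 1092, 860.3 and 920.3 normalised counts in Khk KO and 522, 312, 199 and 396 in WT. Kmt2a, a histone H3 lysine 4 methyltransferase, went from 1.92 (adjusted p = 0.0264) to 1.06 and 0.70 (adjusted p = 0.0513 and 0.0781). Without WT replicate 1 the count fit called 50 of the chromatin genes higher and without WT replicate 4 or Khk KO replicate 1, 2 or 4 none. Among 26 insulin, growth hormone and nutrient signalling genes, the count fit called 12 higher and 1 lower. Insr, the insulin receptor, had 3492, 3639.6, 3866 and 3773 in Khk KO and 3192, 1621, 1038 and 1678 in WT and went from 0.99 (adjusted p = 0.0403) to 0.13 and 0.01 (adjusted p = 1 in both). Rictor, the defining subunit of mTOR complex 2, rose in all 3 fits, with 693, 735, 582 and 686 in Khk KO and 329, 185, 133 and 204 in WT (1.69, 0.68 and 0.66, adjusted p = 0.0147, 0.0139 and 0.00875). Akt2, the main insulin-responsive Akt kinase of liver, stood at -0.27 (adjusted p = 0.13) and fell among genes of its length, at -0.86 and -0.37 (adjusted p = 0.00597 and 0.0277).

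Extracellular matrix genes followed the same order. Of 25 tested, the count fit called 14 higher and 0 lower, and both length fits called Col27a1, a fibrillar collagen gene, alone. It had 1321, 1538, 1764 and 1361 normalised counts in Khk KO and 689.5, 407, 291 and 494 in WT, with log2 fold changes of 1.69, 0.81 and 0.81 (adjusted p = 0.0137, 0.0116 and 0.00746), and lost its call by both length fits without Khk KO replicate 2. Among 83 Zfp zinc finger genes tested, the count fit called 32 higher and 2 lower and both length fits 8 higher and 0 lower, beside 4.46% and 2.76% of all genes; over the left-out libraries the 8 ranged from 1 to 13. Zfp970 had 916, 1003, 646 and 1114 in Khk KO and 440.0, 388, 635 and 519 in WT and rose by 0.92, 1.46 and 1.44 (adjusted p = 0.0213, 0.0044 and 0.00294). Zfp871 rose by 2.12, 1.94 and 1.21 (adjusted p = 0.0285, 0.0373 and 0.0351), with WT replicate 1 at 599 and the other 3 WT libraries at 104, 87 and 177; that call was kept only without WT replicate 1. Of 82 solute carriers tested, both length fits called 4 higher and 1 lower, beside 4.46% and 2.76% of all genes tested. Higher were the mitochondrial iron importer Slc25a37, the phosphate importer Slc20a1 and the mitochondrial NAD carrier Slc25a51. So was Slc22a30, of the organic anion and cation transporter family. In the count fit these 4 rose by 1.05, 0.84, 0.90 and 0.46, in that order (adjusted p = 0.0172, 0.0183, 0.0206 and 0.0461). With the GC trend alone taken out, Slc25a37, Slc20a1 and Slc25a51 stood at 0.87, 0.67 and 0.72, and Slc22a30 at -0.07.

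Some genes of lysosomes and peroxisomes fell for their length. Of 27 lysosome and autophagy genes tested, the count fit called 4 higher and 13 lower, beside 22.8% and 23.8% of all genes tested. Both length fits called 0 higher and 4 lower, beside 4.46% and 2.76%. Npc2, which carries cholesterol out of lysosomes, had 834, 829.6, 766 and 946 normalised counts in Khk KO and 1023, 1536, 1904 and 1588 in WT and fell with log2 fold changes of -0.81, -1.12 and -1.04 (adjusted p = 0.0208, 0.0157 and 0.0124). Ctsb, the lysosomal protease cathepsin B, had 8101, 7972, 8346 and 7729 against 9777, 11324, 11348 and 10857 and fell with log2 fold changes of -0.40, -0.83 and -1.03 (adjusted p = 0.0249, 0.0116 and 0.00682). Ctsa, protective protein/cathepsin A, and Gabarapl2, an ATG8-family protein, were the other two. None of these 4 overlapped between the genotypes, as held for 66.4% of all genes tested. Over the left-out libraries 0 to 5 genes of the list were lower with both lengths. Pex7, the receptor that imports peroxisomal proteins with a type 2 signal, fell with log2 fold changes of -0.59, -1.60 and -1.72 (adjusted p = 0.0379, 0.0157 and 0.0124), from 1320.0, 1515, 2247 and 1545 in WT to 1097, 1051, 1177 and 998 in Khk KO. Of 9 peroxisome biogenesis genes tested, both length fits called Pex7 and Pex26 lower, beside 2.76% of all genes tested, and Pex26 overlapped between genotypes.

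**Figure D4:**
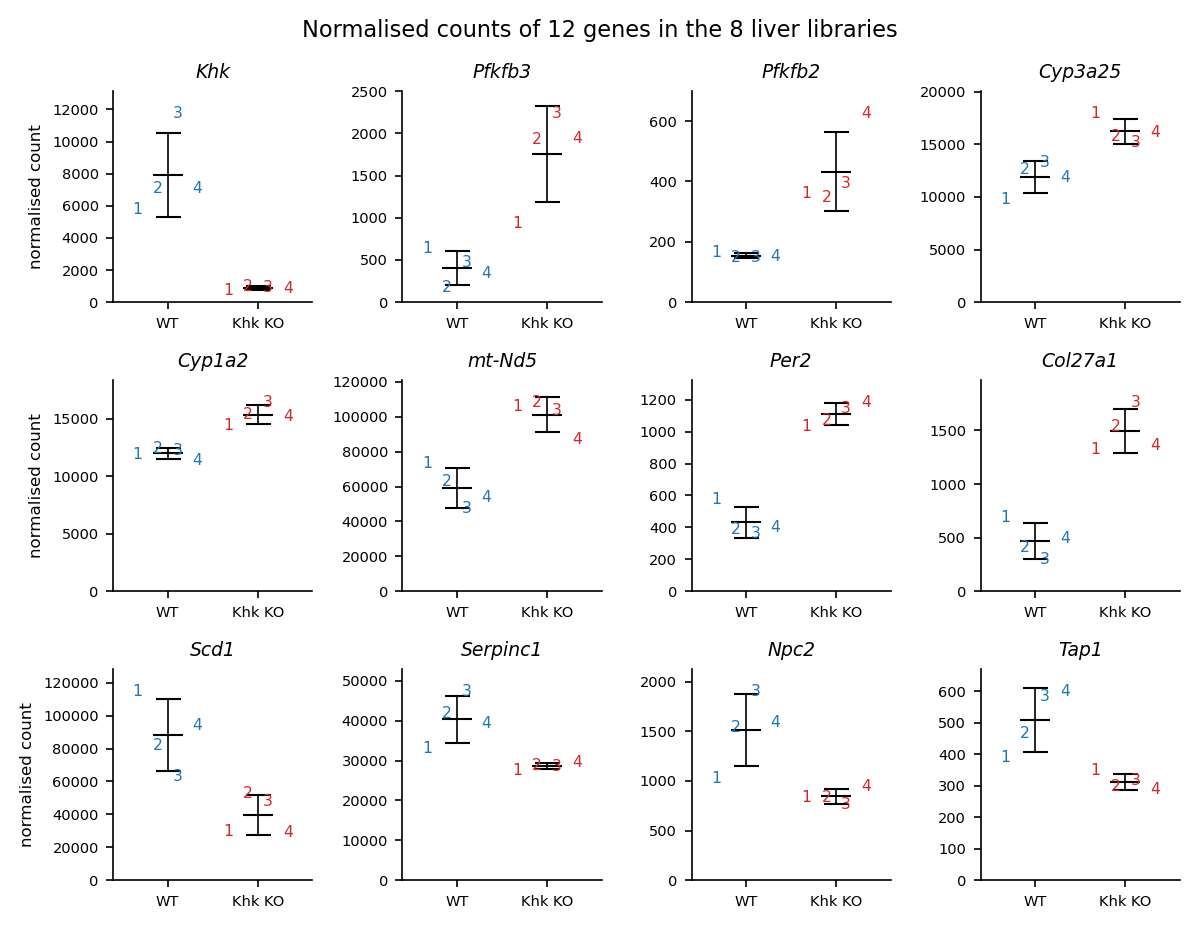
Normalised counts (y axis, from 0) of 12 genes in the 8 liver libraries; digits are replicate numbers of WT (blue) and Khk KO (red), and the black marks are the mean and SD of 4 libraries. No WT library overlaps a Khk KO library in any panel, as held for 66.4% of all genes tested. The panels were picked from the named genes, and named genes that overlap are not shown. WT replicate 1 is the WT library nearest the knockouts for Pfkfb3, Pfkfb2, mt-Nd5, Per2, Col27a1, Serpinc1, Npc2, Tap1 and Khk.

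Among coding genes whose mean reached 100 normalised counts, with no overlap between the genotypes and an adjusted p under 0.05 in both the count and gene-length fits, the 10 largest rises of the gene-length fit were Cabyr, F830016B08Rik, BC005561, Zfp871, A1cf, Phf11c, Pggt1b, Fads3, Pfkfb3 and Zfp970. Of these, Phf11c, Pggt1b and Fads3 missed the threshold in the transcript-length fit (1.04, 0.26 and 0.94, adjusted p = 0.0845, 1 and 0.113). A1cf, a cofactor of apolipoprotein B RNA editing, had 3365, 3773, 3646 and 2938 normalised counts in Khk KO and 2655, 778, 843 and 1116 in WT, and rose by 1.37, 1.61 and 1.17 (adjusted p = 0.0307, 0.0349 and 0.0484). The WT libraries differed among themselves, with replicate 1 close to the knockouts. By the same criteria the 10 largest falls were Khk, Rgs3, Chid1, Snx10, Suds3, Pex7, Nlrp12, Lancl1, Exosc5 and Mrpl33, and Snx10, Exosc5 and Mrpl33 missed the threshold in the transcript-length fit (adjusted p = 0.0905, 0.0753 and 1). Rgs3, a regulator of G-protein signalling, had 113, 138, 69 and 79 in Khk KO and 165, 197, 433 and 259 in WT and fell with log2 fold changes of -1.37, -2.36 and -1.83 (adjusted p = 0.0239, 0.0159 and 0.0163). Nlrp12, a NOD-like receptor gene, had 532, 526, 599.7 and 499 against 920.5, 1032, 1332 and 886 and fell with log2 fold changes of -0.92, -1.60 and -1.91 (adjusted p = 0.017, 0.00834 and 0.006), without overlap and with each library left out.

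Non-coding genes made up most of the rises that length did not take away. Of 491 genes tested that are not protein-coding, both length fits called 141 higher and 3 lower, against 115 higher and 155 lower of 5243 coding genes. By annotated class, 32 of 84 genes of the class TEC (gene models that await experimental support), 30 of 85 antisense genes, 21 of 119 processed pseudogenes and 19 of 72 lincRNAs were higher by that rule. Malat1, an abundant nuclear RNA named here after its values were seen, had 26826, 29923, 28340.2 and 35552 normalised counts in Khk KO and 10740.3, 5486, 3641 and 5526 in WT, and rose by 2.27 ± 0.29 (SE, adjusted p = 0.00884), 1.79 ± 0.18 (adjusted p = 0.00172) and 2.89 ± 0.37 (adjusted p = 0.0036). Its annotated leading transcript, of 606 bases, is far shorter than its 6983 exonic bases. Neat1, the RNA scaffold of paraspeckles and likewise named after its values were seen, had 1957, 2499.7, 1822 and 2213 in Khk KO and 599.8, 874, 639.7 and 886 in WT; it rose in the count and transcript-length fits (1.53 and 1.88, adjusted p = 0.00685 and 4.14e-04) and stood at 0.26 in the gene-length fit (adjusted p = 1). Both showed no overlap between the genotypes. Where libraries do not record the strand, reads of an antisense gene and of its partner cannot be told apart, and reads of a pseudogene can come from its parent gene.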

How the data were processed

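Per the file headers, the authors deposited for liver a table with raw read counts, a normalised signal that equals the count divided by 1 size factor per library, FPKM, a log2 fold change, a p-value and an adjusted p-value. HISAT2 2.0.5 and the builds GRCm38 and mm10 come from the submitters' processing notes; the counter, the test and the strandedness are not given in the sources used here. Ranks of the deposited p-values gave 18225 as the number of genes adjusted over, and 20 genes had an adjusted p of exactly 1. FPKM served only for the library totals that edgeR used as library sizes. The length in the table equals the union of GENCODE M21 exons for 95.1% of genes.

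The count fit is edgeR 4.0.16 (R 4.3.3): TMM scaling, filterByExpr, quasi-likelihood F test between the genotypes, Benjamini-Hochberg adjustment over 18225 genes, threshold 0.05. The gene-length fit replaces TMM by the authors' size factors and a lowess curve of each library on log2 gene length (span 0.5, genes with a mean of at least 10), so that genotype effects running with length are removed too. The curves rest on genes selected for a small p. The transcript-length fit, with the median length of a gene's top-ranked GENCODE M21 transcripts, was chosen after seeing the data. The fits were also run on simulated data with a length trend, in which most of 5144 genes were unchanged. There the gene-length fit recovered 99% of 100 genes changed by a log2 fold change of 1. It called 11 unchanged genes, and the count fit called 2175. How the fits perform on a table selected for a small p, with trends as unequal as those of the WT libraries, was not tested. Each length-relative percentile compares a gene with the 200 protein-coding genes of the table nearest in length. Fold changes are Khk KO over WT, SEs are those of the fits, and values of single libraries are the authors' normalised counts. Replicates differed by more than counting error (chi-square of at least 11.5 per degree of freedom over 12 pairs).

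The gene lists and members were chosen with earlier results of these data known. Named genes are Khk, the 10 largest rises and falls of the gene-length fit (coding, mean of at least 100, no overlap, adjusted p under 0.05 in the count and gene-length fits), up to 4 members per list past the threshold in the count fit and members past it in the gene-length fit (mean of at least 50), and rate-limiting or defining members; not every gene so selected is reported. Alternatives were the authors' size factors, no filter, a mean of at least 50, DESeq2 1.42.0, limma 3.58.1, a replicate block, each library left out, GC content, and spans and neighbour numbers. Tables, exact permutations (scipy 1.17.1) and plots were made in Python 3.11.15.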

Additional observations from a re-analysis of the deposited data

Results flagged for a closer look

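Among 202 groups of 4 libraries (the 2 genotypes of 101 named genes), 8 held a library far from the other 3 by Dixon's ratio at the 95% level; chance sets about 1 in 20 such groups apart. Of these, 4 were in WT, 2 of them in WT replicate 1. WT replicate 1 was high for Adgrv1, at 187 normalised counts, and low for Ass1, at 39101. WT replicate 3 was low for Per3, at 386, and high for Serpina10, at 6946. Khk KO replicate 1 was high for BC005561, at 280, and for Clec4f, at 1511. Khk KO replicate 3 was high for the adipocyte gene Cfd, at 45.2, and Khk KO replicate 4 for Pfkfb2, at 626.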

How the results depend on the processing

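Khk was lower and past the threshold in every alternative run. The 2675 calls of the count fit (1310 higher, 1365 lower) became 5199 (2707 and 2492) when adjusted over the genes tested, 4015 (2158 higher) in DESeq2 and 786 (396 and 390) with the length trend taken out. Leaving out 1 library at a time gave 9 to 4860 calls (8 to 2407 higher, 1 to 2453 lower) in the count fit and 48 to 1807 (37 to 979 higher, 11 to 828 lower) in the gene-length fit. The deviations of same-numbered libraries had correlations of 0.054, -0.119, 0.096 and 0.079, and not every library correlated best with its own number. Correlations this weak cannot settle whether the numbers pair the libraries, so the replicate block is given as an alternative. A fit with the replicate block called 2156 genes (1235 higher, 921 lower), and with the replicate block and the length trend taken out 638 (325 and 313). Signs turned with the GC trend taken out for Cyp2c50 (-0.16), Cyp3a25 (-0.07), Slc22a30 (-0.07), mt-Nd2 (-0.30) and mt-Nd6 (-0.15), with gene length for Glul (0.08, and 0.09 with the replicate block), with transcript length for Fasn (-0.26), Hadhb (0.03) and Ptprb (-0.00), and with 400 in place of 200 length neighbours for Fbp1 (0.00 relative to them); the cause was not tested. The length curves rest on genes chosen for a small p, genotype and any cause of the length trend cannot be told apart, and 4 libraries a genotype limit what could be detected, whatever their depth.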
